A study of Mus musculus with 4 samples.

Results

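Chromatin modifiers and remodellers were compared between cell populations sorted from mouse colon. The genes were chosen by name: array probes named for DNA methyltransferases (Dnmt), Tet enzymes, histone demethylases (Kdm, Jarid, Jmjd), Polycomb proteins (Ezh, Suz12, Eed, Ring1), chromobox proteins (Cbx), deacetylases (Hdac, Sirt), remodellers (Smarc, Chd), ARID proteins, SET domain proteins (Setd) and Uhrf1. This gave 100 genes, measured by 206 probes, of 27821 genes and 41174 probes on the array. The rule uses names only, but it was set with earlier results of these data known. Of the 100 genes, 92 had a probe bright enough to test. The other 8 (Arid5a, Chd5, Hdac9, Jmjd4, Kdm4d, Sirt6, Smarca1 and Smarcd1) had no probe that was well above background in the same population on all arrays, so they are given no ratio. The array used older names for 13 of the genes, such as Jmjd2b for Kdm4b and Setd8 for Kmt5a, and current symbols are used here. Kdm1a and some other demethylases carried names on this array that the rule does not cover (Aof2 for Kdm1a), so they are not among the 100.

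The cells came from adult mice with a normal colon. The mice named in the design carry the Lgr5-EGFP-ires-CreERT2 knockin, in which GFP is made from the Lgr5 promoter. Whether the CD24 sort used the same mice is not said, and no treatment is named. GFP-positive cells were sorted from colonic crypts as 1 population, and cells with high CD24, stained with a PE-conjugated antibody and described as a subset of goblet cells, as the other. Total RNA of both was amplified, labelled with Cy3 or Cy5 and hybridised together to 4 arrays, each of 2 replicates taking a first array and its dye swap (n = 2). Whether the replicates are separate mice is not said in the labels, so p-values cover only the spread between the samples at hand, which may be technical. The GFP sort depends on activity of the knockin allele, and the CD24 sort on a surface protein that more than 1 crypt cell type can carry.

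Chromatin enzymes add or remove methyl and acetyl groups on DNA and histones, and remodellers use ATP to move or eject nucleosomes. Dnmt1 and Uhrf1 copy DNA methylation onto new strands, Polycomb complexes mark and hold genes in a silent state, and the SWI/SNF and CHD families open or reposition nucleosomes. In the intestinal crypt, stem and progenitor cells divide continually, and Uhrf1, Dnmt1 and Ezh2 are known to be made mainly in dividing cells.

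Both sort markers lay opposite to their labels. The stem cell receptor gene Lgr5 was 10.6-fold lower in the Lgr5-GFP-labelled RNA (limma, adjusted p = 0.000528; the log2 ratio was -3.41 ± 0.29, SD over the 2 replicates). The CD24 gene, Cd24a, was 4.35-fold higher there (2.12 ± 0.30; limma, adjusted p = 0.00067). Every direction below is therefore that of the labels as deposited, and with the sign turned each higher becomes lower. Of 11 tested stem cell markers, 8 were lower and 1 higher in the Lgr5-GFP-labelled RNA, while 11 of 14 goblet cell markers were higher and 0 lower. The dye swap of replicate 1 stood apart: 75.3% of its gene spots carried an outlier mark and were left out, so 55 of the 92 tested chromatin genes had no value there and rested on 3 arrays. Turned to the same direction, the arrays correlated across genes, which are not independent replicates, at r of 0.727 to 0.958.

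Most of the chromatin genes that differed were lower in the Lgr5-GFP-labelled RNA. Of 92 tested, 48 (52.2%) were lower and 6 (6.52%) higher by limma at an adjusted p under 0.05, and 38 were not called. Across all 14616 tested genes 47.8% were called, with 25.8% lower and 22% higher. The median log2 ratio of the chromatin genes was -0.40, and that of all tested genes was -0.07. Both replicates were below 0 for 64 of the 92, both above 0 for 20, and of opposite sign for 8. A difference of at least 2-fold was called lower for 11 chromatin genes (12%, against 8.39% of all genes) and higher for 0 (against 8.22%). The counts depend on how the array background was treated. With 74 spots of non-uniform background kept in the background fit, as first planned in an earlier analysis, limma called 0 of all genes (5465 at an unadjusted p under 0.05) and 0 chromatin genes (41 at an unadjusted p under 0.05). With marked spots kept, 29 were lower and 1 higher (31.5% and 1.09%, against 15.5% and 9.7% of all genes). Leaving out replicate 1's first array left 45 testable genes, of which 5 were lower and 0 higher. The share lower was then 11.1%, near the 7.98% of all genes, and 8.3% of all genes were higher. Without the dye swap of replicate 1, 49 were lower and 11 higher (53.3% and 12%, against 30.8% and 27% of all genes). With arrays only centred on their median, 61 were lower and 3 higher, and all genes then split into 5329 lower and 2187 higher in place of 3777 and 3214.

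**Figure D1:**
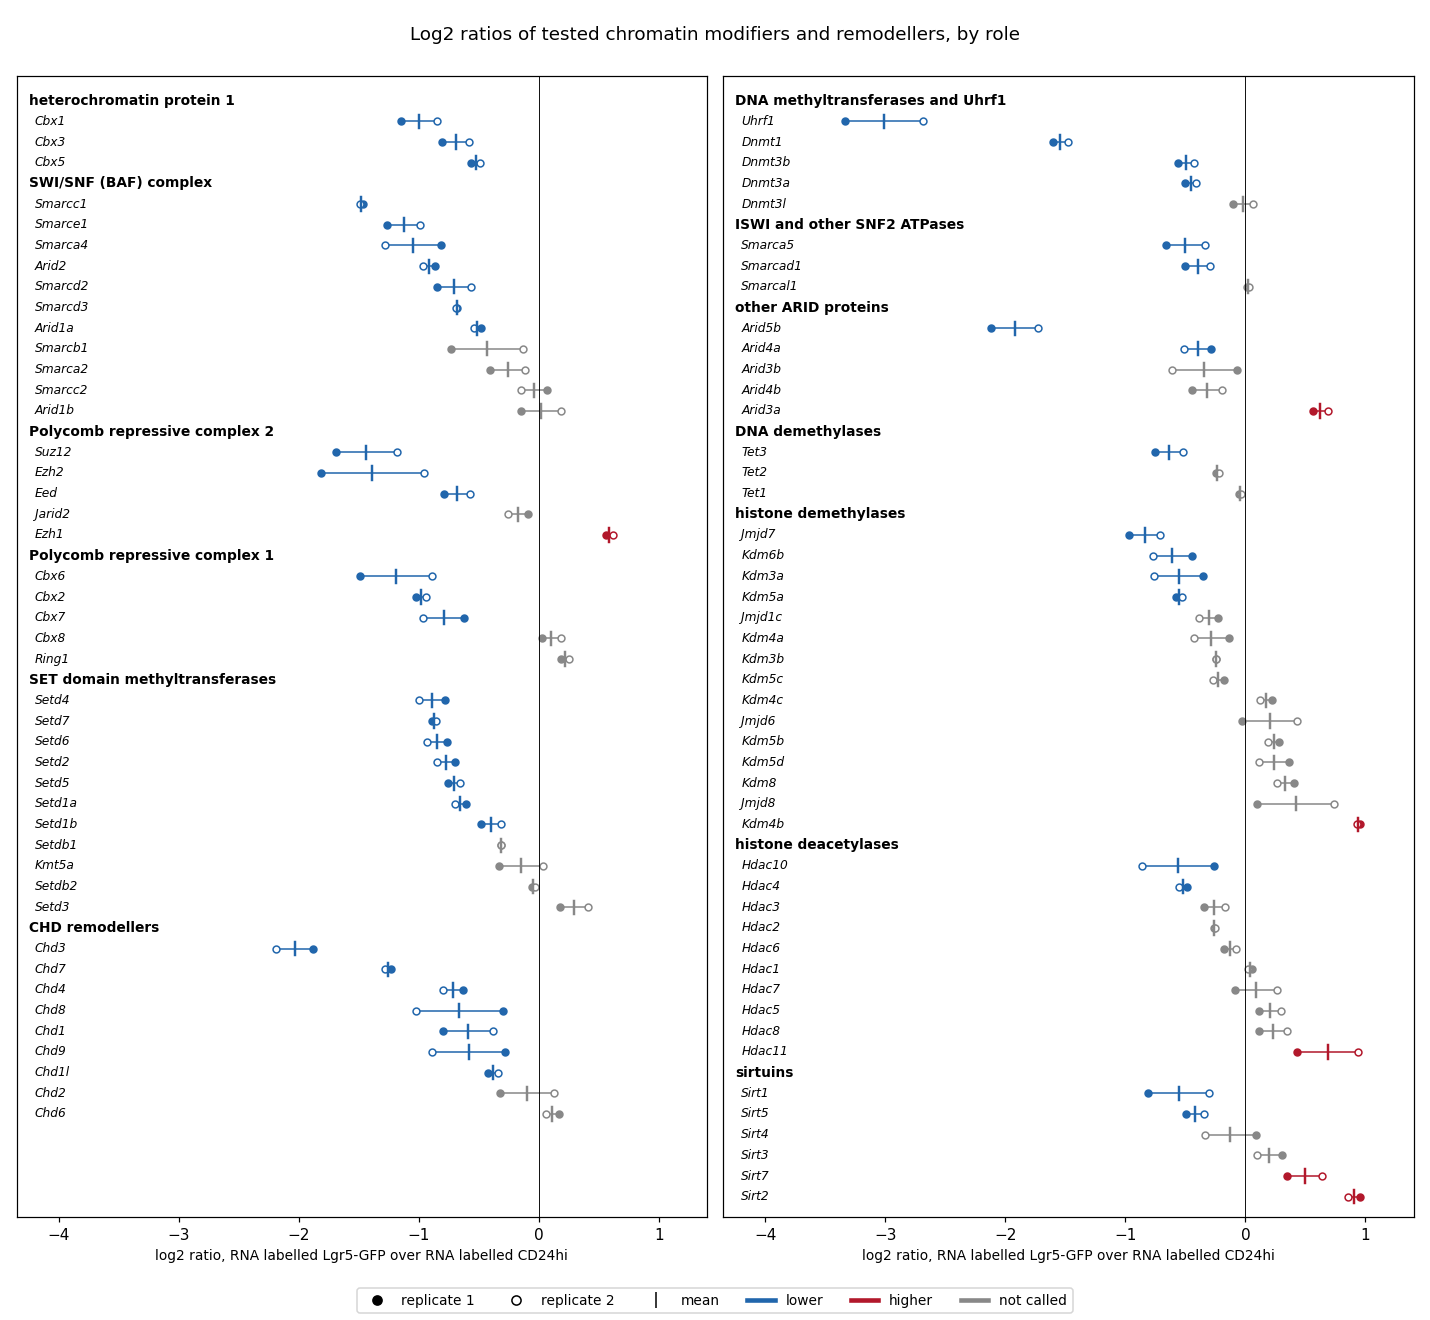
Log2 ratio (x axis) of Lgr5-GFP-labelled RNA over CD24hi-labelled RNA for the tested chromatin genes described here, grouped by role, with replicate 1 as filled circles, replicate 2 as open circles and their mean as a vertical tick. Blue genes were called lower, red genes higher and grey genes were not called; Uhrf1 lies furthest to the left, at -3.01.

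The maintenance arm of DNA methylation was among the lowest. Uhrf1, which binds hemimethylated DNA and recruits Dnmt1, had log2 ratios of -3.34 in replicate 1 (first array only) and of -2.72 and -2.65 in replicate 2 (first array, then dye swap). All were far below 0, and the gene was 8.06-fold lower in the Lgr5-GFP-labelled RNA (-3.01 ± 0.46; limma, adjusted p = 0.00056), the 23rd lowest ratio of all tested genes. A second Uhrf1 probe read -2.79. Dnmt1, which copies methylation onto the new strand, read -1.65, -1.56, -1.44 and -1.51 on the arrays in order (first array and dye swap of replicate 1, then of replicate 2). The arrays lay close together, and Dnmt1 was 2.91-fold lower (-1.54 ± 0.09; limma, adjusted p = 0.000803). The de novo methyltransferases Dnmt3a and Dnmt3b were lower by less in the main fit, at -0.46 ± 0.07 and -0.50 ± 0.09 (limma, adjusted p = 0.0273 and 0.0215). These calls were kept in 7 of 13 and 8 of 12 tested alternatives, and the other Dnmt3a probes read -0.22 and -0.13 and were not called. Dnmt3b was well above background in the Lgr5-GFP-labelled RNA on only 2 of its 3 arrays. Its ratio ran from -0.25 to -1.37 over the alternatives, so the size of its difference is uncertain. The difference Dnmt1 minus Dnmt3a was -1.10 in replicate 1 and -1.07 in replicate 2, and this pair, like the pairs of relatives below, was set side by side after the values were seen and was not tested. Dnmt3l, the cofactor without catalytic activity, was not called at -0.02 ± 0.12. Of the Tet enzymes, which oxidise methylcytosine, Tet3 was lower at -0.63 ± 0.17 (limma, adjusted p = 0.0115), and Tet1 at -0.05 ± 0.01 and Tet2 at -0.23 ± 0.01 were not called.

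Polycomb repressive complex 2, which methylates lysine 27 of histone H3, differed by subunit. Ezh2, its catalytic subunit in dividing cells, had log2 ratios of -1.82 on the first array of replicate 1 and of -0.996 and -0.92 on the arrays of replicate 2. All were below 0 but the replicates lay apart, and Ezh2 was 2.62-fold lower (-1.39 ± 0.61; limma, adjusted p = 0.00468). Suz12, a core subunit needed for activity, read -1.42, -1.96, -1.16 and -1.21 on the arrays in order and was 2.71-fold lower (-1.44 ± 0.36; limma, adjusted p = 0.00176). A second Suz12 probe read -0.49 and was not called. Eed, which binds the methylated histone, was lower at -0.68 ± 0.15 (limma, adjusted p = 0.00881). Ezh1, the other catalytic subunit, ran the opposite way, at 0.56, 0.55 and 0.69 on its 3 arrays. It was 1.5-fold higher in the Lgr5-GFP-labelled RNA (0.59 ± 0.04; limma, adjusted p = 0.0115), and its call was lost with marked spots kept (0.098) and with median centring (0.089). Ezh2 minus Ezh1 was -2.38 in replicate 1 and -1.58 in replicate 2. Jarid2, which helps recruit the complex, was not called at -0.17 ± 0.12.

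The promoters of several of these genes hold the letters of an E2F site, the motif bound by factors that switch on genes for DNA replication. The letters searched were TTTCCCGC, TTTCGCGC, TTTGGCGC and TTTGCCGC, none of which contains another, on both strands of the RefSeq window from 250 bases before to 50 after each start (build GRCm38.p6). Of 82 chromatin genes with a promoter in the table, 8 (9.76%) held a match, against 2.6% of all genes in the table (2.26% of its promoters) and 4.51% of tested genes. Among genes called lower a match was held by 6 of 36 chromatin genes (16.7%) and by 6.73% of all genes called lower, and among chromatin genes not called by 1 of 34 (Sirt4). The remaining match was in Smarcd1, which was not tested. Of the chromatin genes at least 2-fold lower with an entry, 4 of 8 held it: Uhrf1, Dnmt1, Suz12 and Ezh2. The share among all genes at least 2-fold lower was not counted, so these 8 have no like background here. The windows around the match in the genes called lower are shown to let the sites be compared, on the gene's strand, 5′ to 3′, with the match in capitals.
Uhrf1, chr17:56304117-56304146, plus strand: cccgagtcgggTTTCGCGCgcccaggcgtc
Dnmt1, chr9:20952824-20952853, minus strand: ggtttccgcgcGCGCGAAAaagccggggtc
Dnmt1, chr9:20952574-20952601, minus strand: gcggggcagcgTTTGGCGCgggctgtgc
Ezh2, chr6:47595009-47595038, minus strand: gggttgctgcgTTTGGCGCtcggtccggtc
Suz12, chr11:79992876-79992905, plus strand: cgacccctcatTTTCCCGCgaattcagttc
Cbx3, chr6:51470437-51470466, plus strand: tggagccccgcTTTGGCGCgctccgagacg
Arid1a, chr4:133754022-133754051, minus strand: tccctccctccTTTCCCGCcccctccccct

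Dnmt1 thus held 2 matches, the first on the opposite strand. The matches in Ezh2 and the second of Dnmt1 begin 3 and 33 bases after the start site, and the others before it. For the remaining motifs the shares lay nearer to those of other genes. TTTGAA, the core of the cell cycle element CHR, was held by 17.1% of the chromatin genes, 20.2% of all genes in the table (17.9% of its promoters) and 14.7% of tested genes. CCAAT was held by 47.6%, 41.1% (37.4% of promoters) and 43%. Both were searched on both strands and neither contains the other. A match is a description of the letters and says nothing of binding in these cells.

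Polycomb repressive complex 1, which binds the mark left by complex 2 and adds ubiquitin to histone H2A, includes chromobox proteins, the readers of the mark. Cbx6 read -1.49, -0.90 and -0.88 on its 3 arrays and was 2.28-fold lower (-1.19 ± 0.43; limma, adjusted p = 0.00389). Its other probes read -0.98, also called lower, and -0.12, not called. Cbx2 was lower at -0.98 ± 0.06 and Cbx7 at -0.79 ± 0.24. Without replicate 2, Cbx2 is shown by another probe and its ratio is 0.17. Cbx8 at 0.10 ± 0.11 and Ring1, a ubiquitin ligase of the complex, at 0.22 ± 0.05 were not called, though a second Ring1 probe was called higher at 0.49 (limma, adjusted p = 0.0208). The heterochromatin protein 1 family, chromobox proteins that bind methylated lysine 9 of histone H3, was lower in all 3 members: Cbx1 at -0.999 ± 0.21, Cbx3 at -0.69 ± 0.16 and Cbx5 at -0.52 ± 0.05 (limma, adjusted p = 0.00305, 0.00842 and 0.0172). All 3 read below 0 on every array with a value.

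**Figure D2:**
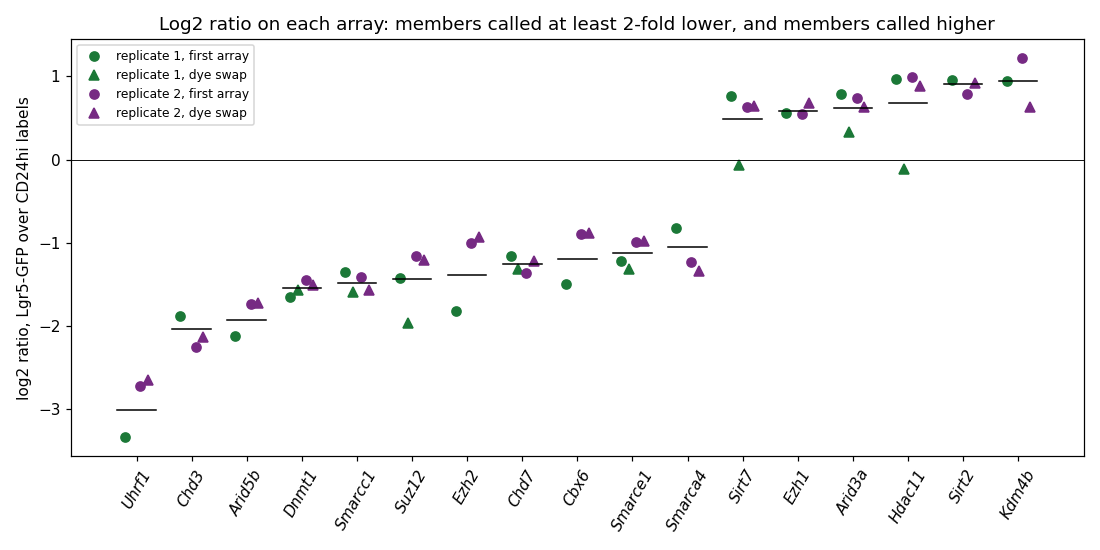
Log2 ratio (y axis) on each array for the 11 chromatin genes called at least 2-fold lower and the 6 called higher; circles are first arrays, triangles dye swaps, green is replicate 1, purple is replicate 2 and the black line is the mean of the replicates. The 11 lower genes stay below 0 on every array with a value, while Hdac11 and Sirt7 fall below 0 on the dye swap of replicate 1.

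SWI/SNF, also called the BAF complex, slides and ejects nucleosomes. Of its 11 tested members 7 were lower and 0 higher, with a median log2 ratio of -0.68. Smarcc1, a scaffold subunit, read -1.35, -1.59, -1.41 and -1.57 on the arrays in order, a narrow range well below 0. It was 2.79-fold lower (-1.48 ± 0.02; limma, adjusted p = 0.000823). Smarcc2, its close relative in the complex, was not called at -0.04 ± 0.16, and Smarcc1 minus Smarcc2 was -1.54 and -1.34 in the replicates. Smarce1, a DNA-binding subunit, read -1.22, -1.31, -0.99 and -0.98 and was 2.18-fold lower (-1.13 ± 0.20; limma, adjusted p = 0.00209). A second Smarce1 probe read -0.41 and was not called. Smarca4, the BRG1 ATPase, read -0.82 on the first array of replicate 1 and -1.23 and -1.33 on the arrays of replicate 2, and was 2.07-fold lower (-1.05 ± 0.33; limma, adjusted p = 0.00397). Its other probes read -0.31 and 0.31 and neither was called. Leaving out replicate 1's first array, where Smarca4 is shown by another probe, gave -0.34 (limma, adjusted p = 0.64). The alternative ATPase Smarca2 was not called at -0.26 ± 0.21.

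The remaining subunits had smaller ratios. Arid2 was lower at -0.91 ± 0.07, Smarcd2 at -0.71 ± 0.20 and Arid1a at -0.51 ± 0.04. A second Arid2 probe read -0.26 and was not called. Smarcd3 did not rise well above background on any array in the Lgr5-GFP-labelled RNA, so the size of its difference is uncertain. Its ratio was -0.68 ± 0.01 (limma, adjusted p = 0.00691), and ran from -0.35 without background subtraction to -2.33 from the series table. Smarcb1, a core subunit, read -0.73 in replicate 1 and -0.13 in replicate 2 and was not called (-0.43 ± 0.42; limma, adjusted p = 0.0919), and Arid1b was not called at 0.02 ± 0.24. Other ARID proteins, which bind DNA outside this complex, were divided. Arid5b, which acts with the demethylase Phf2, read -2.12 on the first array of replicate 1 and -1.73 and -1.72 on the arrays of replicate 2, and was 3.79-fold lower (-1.92 ± 0.28; limma, adjusted p = 0.000737). Another probe of Arid5b read 0.65 (limma, adjusted p = 0.0361), so its direction depends on the probe. Leaving out replicate 1's first array, where Arid5b is not shown by its brightest probe, gave a ratio of -0.80 (limma, adjusted p = 0.0747). Arid3a, a transcription factor, was higher at 0.62 ± 0.09 (limma, adjusted p = 0.0102), with 0.79, 0.33, 0.74 and 0.63 on the arrays in order. Its call was lost with marked spots kept (0.0553) and without the first array of replicate 1 (0.409). Arid3b was not called at -0.34 ± 0.38 by its brightest probe, while its other probes read 0.29 and 0.58, the last called higher (limma, adjusted p = 0.0236).

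The CHD remodellers, ATPases with chromodomains, had 7 of 9 tested members lower and 0 higher. Chd3, an ATPase of the deacetylase complex NuRD, read -1.88 on the first array of replicate 1 and -2.25 and -2.14 on the arrays of replicate 2. It was 4.09-fold lower (-2.03 ± 0.22; limma, adjusted p = 0.000643). That probe has no value on the dye swap of replicate 1, so without replicate 1's first array Chd3 is shown by another probe. The ratio was then -0.36 and was not called (limma, adjusted p = 0.613). The other Chd3 probes were called lower in a separate fit over all kept probes, at -0.87 and -0.69. Chd4, the alternative NuRD ATPase, was lower at -0.72 ± 0.12 (limma, adjusted p = 0.00677) in the main fit and in 11 of 14 tested alternatives. Its other probes read -0.14 and 0.27 and were not called. Chd7, a remodeller of enhancers, read -1.15, -1.31, -1.36 and -1.21 on the arrays in order and was 2.39-fold lower (-1.26 ± 0.04; limma, adjusted p = 0.00118), while its other probes lay at -0.09 and -0.0037 and were not called. Chd8 at -0.66 ± 0.51, Chd1 at -0.59 ± 0.30, Chd9 at -0.58 ± 0.43 and Chd1l at -0.38 ± 0.06 were called lower near the threshold (limma, adjusted p = 0.0375, 0.0232, 0.0405 and 0.047). Their calls were kept in 6 of 14, 9 of 13, 7 of 14 and 7 of 13 tested alternatives. The other kept probes of Chd8 (-0.01), Chd1 (-0.33) and Chd9 (-0.17 to -0.05) were not called. Chd2 at -0.09 ± 0.32 and Chd6 at 0.11 ± 0.08 were not called. Of the ISWI and other SNF2 ATPases, Smarca5, the ISWI motor, was lower at -0.50 ± 0.23 and Smarcad1, which acts behind the replication fork, at -0.40 ± 0.15 (limma, adjusted p = 0.0305 and 0.0485). These calls were kept in 7 of 13 and 6 of 13 tested alternatives, and 2 of the 4 kept Smarca5 probes, at -0.14 and -0.12, were not called. A second Smarcad1 probe read -0.10 and was not called. Smarcal1, which restarts stalled forks, was not called at 0.02 ± 0.01.

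**Figure D3:**
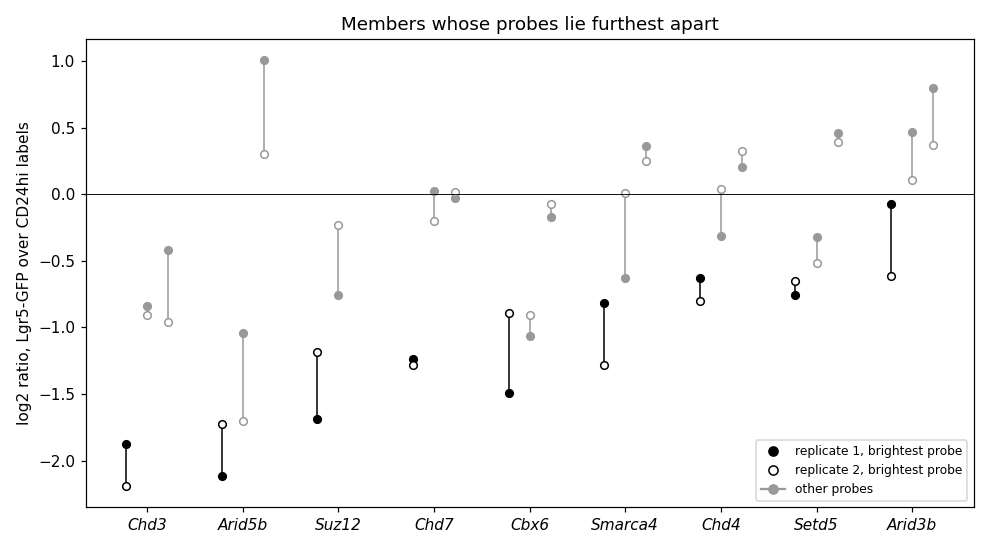
Log2 ratio (y axis) of each kept probe for the 9 chromatin genes whose probes lie furthest apart; filled circles are replicate 1, open circles replicate 2, black is the brightest probe, which stands for the gene, and grey the others. For Arid5b and Setd5 the probes lie on both sides of 0, with calls in both directions.

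Probes of the same gene were compared because the array carries several for many members, and they may report different transcripts. Of 44 chromatin genes with 2 or more kept probes, 29 had all probes within 0.5 of each other on the log2 scale and 6 had probes more than 1 apart (Arid5b, Smarca4, Chd3, Chd7, Setd5 and Cbx6). For 10 of the 44 all kept probes were called in the same direction, among them Uhrf1, Chd3, Cbx3, Cbx5, Sirt1 and Sirt2. For 2, Arid5b and Setd5, probes were called in opposite directions. With the mean over kept probes in place of the brightest, 38 chromatin genes were lower and 6 higher, and their median was -0.29. These were 41.3% and 6.52%, against 23.6% and 21.3% of all genes. Of the genes not called by their brightest probe, 5 (Setd3, Ring1, Kdm5b, Arid3b and Hdac7) had another probe called higher and 0 had another called lower. Which transcript each probe reads was not tested.

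The SET domain methyltransferases, which methylate histone and other lysines, had 7 of 11 tested members lower and 0 higher. The lower members lay in a narrow band. Setd4 was lowest at -0.89 ± 0.15 (-0.78, -0.89 and -1.11 on its 3 arrays; limma, adjusted p = 0.00368), followed by Setd7 at -0.87 ± 0.02, Setd6 at -0.85 ± 0.12 and Setd2, which makes lysine 36 trimethylation on transcribed genes, at -0.77 ± 0.10. Setd5 was lower at -0.70 ± 0.07 by its brightest probe, but its other probes read -0.42 and 0.42 (limma, adjusted p = 0.0398 and 0.0323). Setd1a and Setd1b, which methylate lysine 4 at promoters, were lower at -0.65 ± 0.06 and -0.39 ± 0.12, in 12 of 13 and 7 of 13 tested alternatives. A second Setd1b probe read -0.30 and was not called. Setd3, an actin histidine methyltransferase, was not called at 0.29 ± 0.16 by its brightest probe, while a second probe was called higher at 0.83 (limma, adjusted p = 0.0043). Also not called were Setdb1, Setdb2 and Kmt5a, which lay between -0.32 and -0.05.

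Genes grouped here as histone demethylases were taken by their Kdm, Jarid or Jmjd names, and not all are established as such enzymes. Of the 15 tested, 4 were lower, 1 higher and 10 not called. Kdm4b, which removes methyl groups from lysine 9, read 0.95 on the first array of replicate 1 and 1.22 and 0.64 on the arrays of replicate 2, all above 0. It was 1.92-fold higher in the Lgr5-GFP-labelled RNA (0.94 ± 0.01; limma, adjusted p = 0.00258), while its relative Kdm4a was not called at -0.28 ± 0.20. Kdm4a minus Kdm4b was -1.09 and -1.36 in the replicates. Jmjd7 was the lowest at -0.84 ± 0.18, followed by Kdm6b, a lysine 27 demethylase, at -0.61 ± 0.23, Kdm3a at -0.56 ± 0.29 and Kdm5a at -0.56 ± 0.04. The other kept Kdm5a probes read -0.25 and 0.04 and were not called. Kdm5b and Kdm5c, which like Kdm5a act on lysine 4, were not called at 0.24 ± 0.06 and -0.23 ± 0.07. A second Kdm5b probe was called higher at 0.44 (limma, adjusted p = 0.0284), and a second Kdm5c probe read 0.25 and was not called. Kdm1a, a lysine 4 demethylase outside the name rule, was lower at -0.90 ± 0.05 (limma, adjusted p = 0.00297).

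The ratios of the histone deacetylases lay mostly near 0. Of 10 tested zinc-dependent enzymes 2 were lower, 1 higher and 7 not called, with a median log2 ratio of -0.05. Hdac1, the main catalytic subunit of NuRD, Sin3 and CoREST together with Hdac2, read 0.18, -0.06, 0.11 and -0.08 on the arrays in order and lay on both sides of 0 (0.04 ± 0.03; limma, adjusted p = 0.826). Hdac2 was not called at -0.26 ± 0.0037, nor was Hdac3 at -0.26 ± 0.12. Hdac2 was well above background in the Lgr5-GFP-labelled RNA on only 2 of its 3 arrays. Its ratio ran from -0.14 to -0.96 over the alternatives, and it was called lower in 3 of 12 tested. Hdac10 at -0.56 ± 0.43 and Hdac4 at -0.52 ± 0.04 were lower, and kept their calls in 10 of 14 and 11 of 13 tested alternatives. Hdac11, the class IV enzyme, read 0.97, -0.11, 0.99 and 0.89, so that 3 arrays were high and the dye swap of replicate 1 was near 0, and it was called higher (0.69 ± 0.36; limma, adjusted p = 0.0181). That call was lost with marked spots kept (0.0929), with median centring (0.0507) and with replicate 1's first array left out (0.535).

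The sirtuins, deacylases that use NAD, were divided, with 2 of 6 tested members higher and 2 lower. Sirt2, a mainly cytoplasmic tubulin and histone deacetylase, read 0.95 on the first array of replicate 1 and 0.79 and 0.92 on the arrays of replicate 2. It was 1.87-fold higher (0.91 ± 0.07; limma, adjusted p = 0.00298), all 3 of its probes were called higher, and its call was lost with marked spots kept (0.0511). Sirt7, found in the nucleolus, was higher at 0.49 ± 0.21 (limma, adjusted p = 0.0297), with 0.76, -0.07, 0.64 and 0.65 on the arrays in order. Its call was lost with the processed signals (0.0647), the series table (0.191), marked spots kept (0.148), median centring (0.0694) and without the first array of replicate 1 (0.708). Sirt1, a nuclear deacetylase, was lower at -0.56 ± 0.36 and the mitochondrial Sirt5 at -0.42 ± 0.11 (limma, adjusted p = 0.0356 and 0.0386), and each call was kept in 8 tested alternatives, of 13 and of 14. The mitochondrial Sirt3 and Sirt4 were not called at 0.20 ± 0.15 and -0.13 ± 0.30. Sirt1 minus Sirt2 was -1.77 and -1.16 in the replicates.

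**Figure D4:**
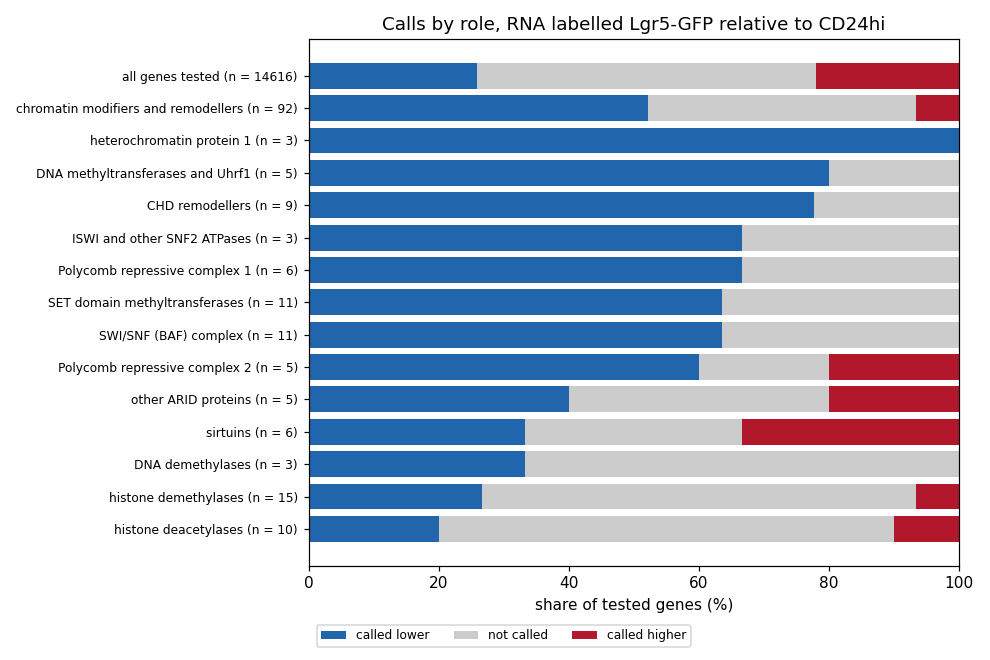
Share of tested genes (x axis, %) called lower (blue), not called (grey) and called higher (red) in the Lgr5-GFP-labelled RNA, for all genes, all 92 chromatin genes and each role (y axis, with the number tested). The share called lower runs from 20% for the histone deacetylases to 100% for heterochromatin protein 1, against 25.8% of all genes.

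By role, the share called lower ran from 20% for the deacetylases and 26.7% for the histone demethylases to 77.8% for the CHD remodellers, 80% for the DNA methyltransferases with Uhrf1 and 100% for heterochromatin protein 1, the last from only 3 genes. The roles were set side by side as counts, and the differences between them were not tested.

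Genes that work with these proteins but lie outside the name rule gave related counts. Of 152 tested, 65 were lower (42.8%) and 10 higher (6.58%), against 25.8% and 22% of all tested genes. Their median log2 ratio was -0.32. Histone chaperones and factors that rebuild chromatin behind the replication fork had 16 of 20 lower (80%) and 0 higher, with a median of -1.31. Among them Chaf1b, a subunit of the chromatin assembly factor CAF-1, was at -2.68 ± 0.05, Lig1, the replicative DNA ligase, at -2.48 ± 0.21, and Hells, a remodeller needed for DNA methylation, at -2.06 ± 0.31. Polycomb partners had 6 of 19 lower (31.6%) and 2 higher (10.5%), a share of lower genes near the 25.8% of all tested genes. Phf19, which guides complex 2 to chromatin, was lower at -1.16 ± 0.36, as were the histone-binding Rbbp4 at -1.15 ± 0.35 and Rbbp7 at -1.15 ± 0.21, and the ubiquitin ligase Rnf2 at -0.56 ± 0.13. Scmh1, a Polycomb protein, was higher at 1.76 ± 0.37, and Phf1, an alternative guide of complex 2, at 1.02 ± 0.32 (limma, adjusted p = 0.00109 and 0.00409).

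The partners of the deacetylases were called at shares near those of all tested genes. Of 23 tested NuRD, Sin3 and CoREST partners 6 were lower (26.1%), led by Sap30 at -1.19 ± 0.29, and 4 higher (17.4%), with the methyl-CpG-binding Mbd2 at 1.05 ± 0.34 and its relative in NuRD, Mbd3, at 0.92 ± 0.50 (limma, adjusted p = 0.00401 and 0.0123). Of 15 SWI/SNF partners 6 were lower (40%), with Bcl11a at -1.43 ± 0.51, Bcl7a at -1.28 ± 0.08 and the actin-like Actl6a at -1.19 ± 0.40. Another 2 were higher (13.3%), of which Bcl7b at 0.58 ± 0.07 was the larger. INO80, SRCAP and ISWI partners had 10 of 19 lower (52.6%) and 0 higher, led by Baz1a at -1.28 ± 0.10. Other histone methyltransferases had 14 of 28 lower (50%) and 1 higher (3.57%), Prmt2 at 0.46 ± 0.20. The lower were led by Nsd2, which dimethylates lysine 36, at -1.90 ± 0.15, with the lysine 9 enzyme Suv39h1 at -1.22 ± 0.13. Histone acetyltransferases had 2 of 19 lower (10.5%) and 1 higher (5.26%), both below the 25.8% and 22% of all tested genes. The lowest was Hat1, which acetylates new histone H4, at -1.39 ± 0.06, and the higher was Kat2b at 0.69 ± 0.09. Readers of DNA methylation and excision repair factors had 5 of 9 lower (55.6%) and 0 higher, led by the stress gene Gadd45b at -1.42 ± 0.31.

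**Figure D5:**
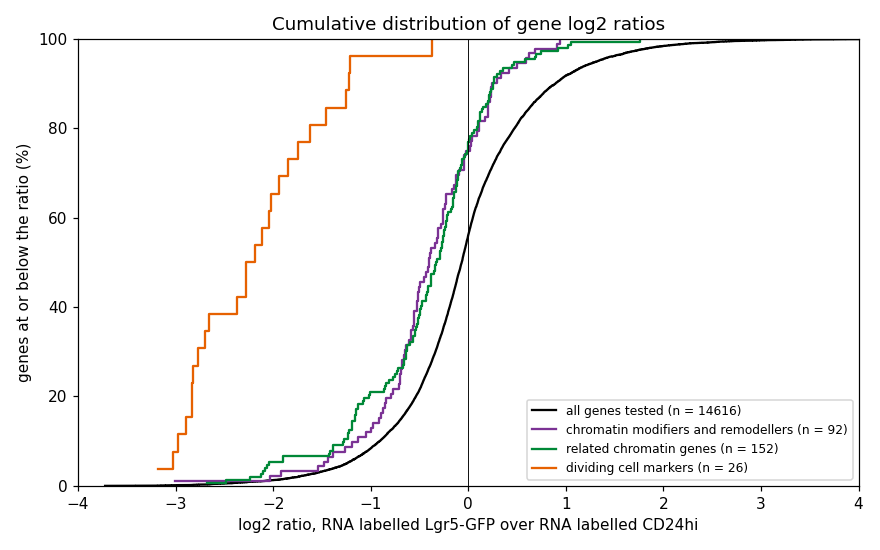
Share of genes (y axis, %) at or below each log2 ratio of Lgr5-GFP-labelled RNA over CD24hi-labelled RNA (x axis) for all 14616 tested genes, the 92 chromatin genes, 152 related chromatin genes and 26 markers of dividing cells. The medians are -0.07, -0.40, -0.32 and -2.23.

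Markers of dividing cells moved in the same direction as the chromatin genes. All 26 were tested, 25 were lower and 0 higher in the Lgr5-GFP-labelled RNA, with a median log2 ratio of -2.23 and Mki67 at -3.03 ± 0.62. Their normalised signal summed to between 31954 and 44734 in the Lgr5-GFP-labelled RNA and to between 197975 and 199800 in the CD24hi-labelled RNA, over the 3 arrays other than the dye swap of replicate 1. Their part in the ratios of the chromatin genes was not tested. Since each RNA came from many cells, fewer cells of a type and less RNA per cell cannot be told apart. Goblet cell markers summed to between 781438 and 1112304 in the Lgr5-GFP-labelled RNA and to between 81394 and 150502 in the CD24hi-labelled RNA, and the tested markers of enteroendocrine cells (5 of 9 higher, 0 lower) and tuft cells (7 of 7 higher) also leaned that way. The replicates had opposite signs for 2 goblet, 2 enteroendocrine and 0 tuft cell markers. The enteroendocrine Gcg read -1.69 in replicate 1 and 2.01 in replicate 2, and Pyy -0.94 and 2.48. Markers of absorptive colonocytes had 4 of 10 higher and 0 lower, and summed to between 261961 and 281920 in the Lgr5-GFP-labelled RNA and to between 83055 and 92478 in the CD24hi-labelled RNA. Of 13 leukocyte markers 3 could be tested and 0 were called, and Ptprc, the pan-leukocyte marker, was not among the tested genes. Of 12 stromal and endothelial markers 3 could be tested and 1 was higher.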

How the data were processed

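Lgr5-GFP-labelled RNA and CD24hi-labelled RNA were compared on 4 two-colour Agilent arrays. Per the file headers, spots were read with Feature Extraction 10.5.1.1, and probe positions are mm9. The deposited intensity values are mean spot and median local background brightness, not normalised, and a further set processed by the software. The authors also deposited a log10 ratio of red over green per spot and a series table of log2 ratios, with a normalisation not given in the sources used here. Median signals were 94.2 to 4377 in the Lgr5-GFP-labelled RNA and 110 to 1358 in the CD24hi-labelled RNA, and the number of arrays limits the precision.

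Normexp (offset 50) and loess were run in limma 3.58.1 (R 4.3.3), with 74 spots of non-uniform background left out of both. Marked outlier spots numbered 100, 32648, 173 and 163 of 43379 on the arrays in order. They stayed in the normexp fit, had no weight in loess and were left out afterwards. Leaving out the 74 spots was taken over from an earlier analysis, whose first planned fit gave 0 calls; the fitted red background mean of that array is 5.5 without them and -918 with them. An array and its swap were averaged, and limma tested the 2 log2 ratios against 0 (2-sided, 1 residual and 4.58 prior degrees of freedom, Benjamini-Hochberg over 14616 genes, adjusted p under 0.05). The test was checked on simulated data, with larger changes than most reported here and less replicate spread than observed. Calls of small ratios were thus not checked. Probes had to be well above background on all arrays with a value in at least 1 population, and the brightest kept probe stands for a gene. Calls and adjusted p-values of the other probes come from a separate limma fit of the same kind. It took all kept probes, with Benjamini-Hochberg over those probes. Symbols came from RefSeq (GRCm38.p6) by accession for 27041 spots. Members and gene lists were chosen with earlier results of these data known. The rule named Lgr5 and Cd24a, 11 fixed genes, the largest called, every called member with an absolute log2 ratio of 1 or more and the brightest uncalled member per role, any gene below background in 1 population, and the largest called gene per direction of each related list. Other genes were named after their values were seen. The values of 1 member are not reported here.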

Additional observations from a re-analysis of the deposited data

Results flagged for a closer look

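Of 38 genes with a value on all 4 arrays, the 37 members and Cd24a, 3 had an array whose gap to the nearest other value exceeded Dixon's 95% limit for the gap as a share of the range, which chance alone passes in about 1 in 20 groups. In each it was the dye swap of replicate 1, on which 75.3% of gene spots were left out as outliers. Hdac11 read -0.11 there and 0.89 to 0.99 on the other arrays. Sirt7 read -0.069 there and 0.64 to 0.76 on the others. Chd9 read 0.24 there and -0.95 to -0.80 on the others. The part of that array in these values was not tested beyond leaving it out, which gave 49 members lower and 11 higher. These were 53.3% and 12%, against 30.8% and 27% of all genes.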

How the results depend on the processing

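Of the 54 calls among chromatin genes, 53 kept their sign under every alternative that gave them a value, the exception being Cbx2 without replicate 2 (0.17, and -0.94 without replicate 1), and 54 were lost under at least 1, each of them with the non-uniform backgrounds kept in the background fit. Without the first array of replicate 1, only 26 of the 54 could be tested. With the non-uniform backgrounds kept in the background fit, limma called 0 of all genes (smallest adjusted p 0.0615). Members were then 0 lower and 0 higher, with a median of -0.30. Marked spots kept gave 3688 genes called, 29 members lower and 1 higher (31.5% and 1.09%, against 15.5% and 9.7% of all genes). Median centring gave 3 members higher (3.26%, against 15% of all genes) and a median of -0.64. The median of all genes was then -0.25 in place of -0.07. The median of the members was -0.35 without background subtraction, -0.51 from the software's processed signals, -0.58 from the series table, -0.33 with no filter on dim probes and -0.29 with the mean over probes. Leaving out each array in turn gave 977 to 8447 genes called, 5 to 49 members lower, 0 to 11 higher and medians of -0.40 to -0.34. The share of members lower was 11.1% to 53.3%, against 7.98% to 30.8% of all genes. Leaving out a replicate, which allows no test, gave medians of -0.36 and -0.33. The 4 arrays were also fitted singly, with the replicate as a random block. This gave 54 members lower and 8 higher (58.7% and 8.7%, against 31% and 25% of all genes), and the 54 calls were kept. The fitted correlation within a replicate was -0.0346, so an array and its dye swap counted almost as separate replicates. The larger counts of that fit are therefore not added support. Each ratio is within an array and so already pairs the RNAs.

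Among the genes named, signs changed for uncalled ones, besides Cbx2, and not every such change is listed. Arid1b, Chd6, Hdac7, Kmt5a, Setdb2 and Sirt4 also changed sign under at least 1 alternative. Hdac1 read -0.011 from the processed signals, -0.046 with marked spots kept, -0.084 with median centring, -0.079 from the series table, and -0.023 and -0.010 without the first array of replicate 1 and of replicate 2. Smarcal1 read -0.014 without background subtraction, -0.13 from the processed signals, -0.020 with non-uniform backgrounds kept, -0.0051 with marked spots kept, -0.27 with median centring and -0.044 without the first array of replicate 2. Dnmt3l read 0.013 with non-uniform backgrounds kept, 0.0094 with the random block and 0.079 without the first array of replicate 2. With the mean over probes Arid3b read 0.18 and Kdm5c 0.012. Chd2 read 0.16 without the dye swap of replicate 1, Cbx8 -0.20 with median centring, and Smarcc2 0.020 and the Polycomb partner Bmi1 0.00032 without the dye swap of replicate 2. The causes of these changes were not tested. With 2 replicates, small ratios near the threshold are the least certain.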
